A study of Homo sapiens with 9 samples.

Results

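The genes of 10 transcription factors that set erythroid identity, or that are linked to leukaemia, were examined for binding of the splicing factor SF3B1 to their RNA: GATA1, GATA2, TAL1, LMO2, KLF1, NFE2, ZFPM1, MYB, GFI1B and BCL11A. A binding site was counted for a gene when its centre lay inside the RefSeq span of that gene in GRCh38, on the strand of the gene. This gave 165 of the 96852 sites in the list, or 0.17% (95% Wilson interval 0.146% to 0.198%), distributed over 8 of the 10 genes. The interval treats sites as independent counts, which neighbouring sites are not, and it measures no spread between cultures. KLF1 and BCL11A had 0 sites.

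The series used iCLIP, which fixes a protein to the RNA it touches with ultraviolet light, pulls the protein down with an antibody and reads the crosslinked nucleotide by sequencing. The site list used here belongs, per the labels, to 3 SF3B1 libraries (replicates 2, 3 and 4) of K562 cells with the genotype SF3B1 wt/wt, irradiated with 400 mJ per square centimetre at 254 nm and precipitated with 10 µg of a monoclonal antibody to SF3B1. The series also holds 2 SF3B1 libraries of K562 cells heterozygous for K700E and 4 U2AF2 libraries of unmutated K562 cells, which were not analysed here. According to its header, the list keeps what every replicate of one or the other condition shared, so a single site is not assigned to a genotype below. K562 is an established human line with erythroid and megakaryocytic features; it is widely described as derived from chronic myeloid leukaemia, whereas the labels give a lymphoid leukaemia as its source. The list gives positions only, without read numbers or a value per replicate. The depth is therefore unknown, no spread between cultures can be given, and no comparison below is a test.

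SF3B1 is a subunit of the U2 small nuclear ribonucleoprotein, the splicing particle that settles on the branch point of an intron upstream of the 3′ splice site. A site in a gene marks RNA of that gene that was crosslinked to the precipitated protein. The genes studied here encode much of the erythroid transcription network. GATA1 and GATA2 are zinc finger proteins that read GATA motifs. TAL1 is a helix-loop-helix factor and LMO2 the bridging protein that joins it to GATA factors. ZFPM1, also called FOG1, is the cofactor of GATA1. KLF1 and NFE2 activate globin and other red cell genes, GFI1B is a repressor needed in erythroid and megakaryocytic cells, MYB keeps progenitors dividing, and BCL11A represses fetal globin.

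No sequence of the sites themselves was used here, since no genome sequence was at hand. What could be read was the DNA before the start sites of these genes, from RefSeq tables of GRCh38.p14. The tables hold 15 starts for 8 of the genes, and none for LMO2 and NFE2. Of the 142 sites in genes with a tabulated start, 0 lay in a window from 250 bases before to 50 bases from the start on. In the whole list 280 of 96852 sites did, or 0.289%, so that 0 among so few sites sets these genes apart in no way. The 250 bases before each start were searched for AGATAA and TGATAA, letters of the motif that GATA factors read, on both strands. They were found before 3 of the 15 starts, against 11.2% of the 22199 tabulated starts of protein-coding genes and 14.6% of all 35116. These 3 stretches are shown because they hold a match. They lie before the start of KLF1, a gene without any site, the upstream start of TAL1 and the downstream start of GFI1B. Capitals mark the motif match, written 5′ to 3′ on the strand of the gene.
KLF1, chr19:12887202-12887451, minus strand: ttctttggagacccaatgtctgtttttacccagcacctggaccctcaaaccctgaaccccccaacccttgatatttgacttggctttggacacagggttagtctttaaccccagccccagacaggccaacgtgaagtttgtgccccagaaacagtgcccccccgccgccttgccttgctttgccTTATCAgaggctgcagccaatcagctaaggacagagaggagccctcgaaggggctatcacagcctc
TAL1, chr1:47232336-47232585, minus strand: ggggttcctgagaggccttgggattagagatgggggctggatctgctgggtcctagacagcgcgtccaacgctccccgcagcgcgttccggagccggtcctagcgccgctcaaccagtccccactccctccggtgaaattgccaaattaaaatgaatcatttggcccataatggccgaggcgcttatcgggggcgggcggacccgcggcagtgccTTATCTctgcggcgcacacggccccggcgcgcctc
GFI1B, chr9:132978444-132978693, plus strand: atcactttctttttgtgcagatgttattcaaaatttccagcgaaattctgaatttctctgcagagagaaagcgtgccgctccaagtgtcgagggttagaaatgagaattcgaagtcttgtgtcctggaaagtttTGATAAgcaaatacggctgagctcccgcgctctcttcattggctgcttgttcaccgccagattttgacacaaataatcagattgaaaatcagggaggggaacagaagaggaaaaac
The match began 66 bases before the start in KLF1, 35 bases before it in TAL1 and 116 bases before it in GFI1B. A match is a stretch of letters and does not show that a factor binds there.

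The number of sites differed widely between the factors. MYB had 84 sites, GATA2 had 20, TAL1 had 17, NFE2 had 14 and GFI1B had 10. LMO2 had 9, GATA1 had 6 and ZFPM1 had 5. MYB alone thus held 50.9% of the sites of all 10 genes. Every one of the 8 genes with a site had at least 5, and 5 of the 10 genes had at least 10. Among 20037 protein-coding genes, 38.0% had at least 1 site on their strand, 23.1% had at least 5 and 14.8% had at least 10. The median over the 10 genes was 9.5 sites, and over all 20037 protein-coding genes it was 0. Among genes with any site, the median was 12 for the 8 factor genes. For the 7608 protein-coding genes that had any, the median was 7 and the quartiles were 3 and 15.

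Only MYB stood among the site-richest genes: 80 protein-coding genes, or 0.399%, had at least 80 sites, and MYB ranked 68th. GATA2 had more sites than 92.8% of protein-coding genes, TAL1 than 91.2%, NFE2 than 89.1% and GFI1B than 85.2%. LMO2 had more than 83.9%, GATA1 more than 79.0% and ZFPM1 more than 76.9%. The list holds no replicate values from which to say whether neighbours in this order, such as LMO2 and GFI1B, differ.

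Relative to the length of the span, the order changed. MYB remained highest with 2.22 sites per kb, followed by NFE2 with 1.57, GATA2 with 1.45 and TAL1 with 1.06. GATA1, a short gene of 7.72 kb, had 0.777 sites per kb. LMO2 had 0.269, GFI1B 0.209 and ZFPM1, whose span is 85.3 kb, had 0.0586. The median over all protein-coding genes with a site was 0.199 sites per kb, with quartiles of 0.0706 and 0.51, so that 7 of the 8 genes lay above the median and only ZFPM1 lay below the lower quartile. The median rank of the 8 genes was 2374 by sites and 1046 by sites per kb. Transcript abundance was not measured here, and the part of expression in these counts was not tested.

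**Figure D1:**
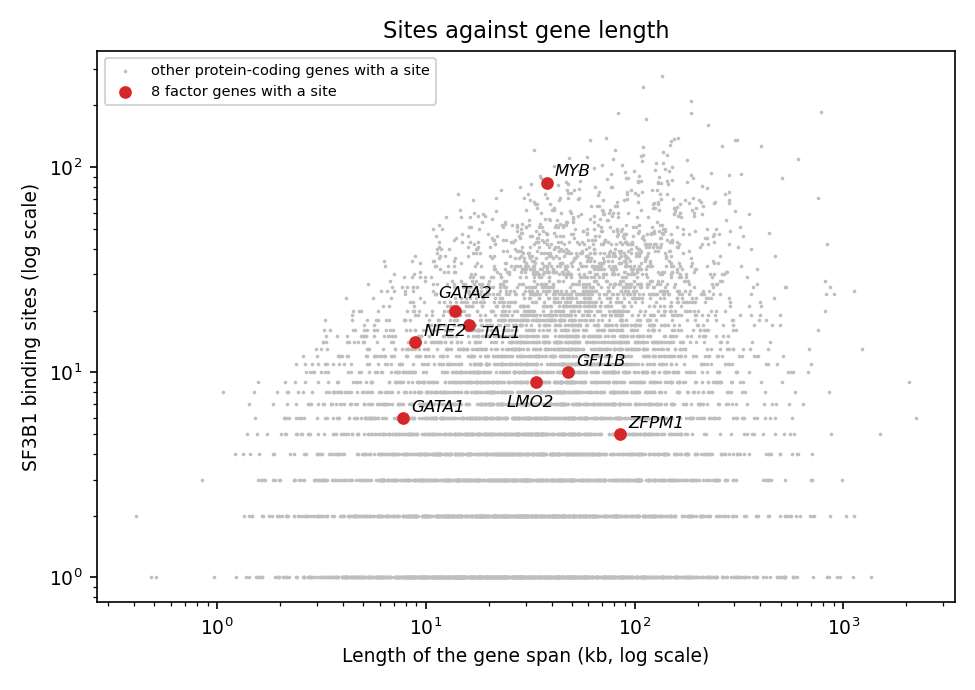
Number of SF3B1 binding sites (log scale) against the length of the gene span in kb (log scale) for all 7608 protein-coding genes with a site in grey and the 8 factor genes in red. MYB, with 84 sites, stands near the upper edge for its length, and ZFPM1, with 5 sites over 85.3 kb, is the lowest and the longest of the 8.

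MYB spans positions 135181308 to 135219172 of chromosome 6, on the plus strand. Its sites were not spread evenly over this span. The first site was centred 6.46 kb from the start. From there, 82 sites filled a stretch of 15.9 kb, between 135187764 and 135203697, at 5.15 sites per kb. A stretch of 14.1 kb without a site followed, equal to 37.3% of the span, and then the last 2 sites, centred at 135217809 and 135217826, lay 1.35 kb before the end. The next largest distance between neighbours was 1799 nt. Only 24 of the 84 sites lay beyond the midpoint of the span.

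The densest 10 kb of MYB held 62 sites, which placed it 7th among the 7608 genes with a site; this measure was chosen after the positions were seen. The site-free 14.1 kb was less unusual: 43.9% of the 4630 protein-coding genes that had 5 or more sites showed a distance between neighbours of at least 10000 nt. A non-coding RNA gene, LOC105378011, is annotated over the downstream portion of MYB, and its strand is not in the tables. It contains 49 of the 84 sites. It extends beyond the end of MYB to position 135236195, and 0 sites lay in that remainder. Without sites inside any other annotated gene, MYB would have 35 sites.

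The closest groups in MYB show how listed sites, each 5 nt wide, lie beside each other. Sites centred 5 nt apart directly adjoin, and the list does not show whether they are separate contacts. Neighbours at most 60 nt apart were linked, which gave 50 clusters, 31 of them a single site and none larger than 4 sites. One cluster of 4 was centred at 17773, 17778, 17786 and 17791 nt from the start and was 23 nt wide. Another of 4, at 10961, 10978, 10993 and 11005 nt, was 49 nt wide. The first cluster of the gene, at 6456, 6479 and 6512 nt, was 61 nt wide. In this group neighbours were 23 and 33 nt apart, whereas in the 23 nt cluster they were 5, 8 and 5 nt apart. Further clusters of 4 lay at 14353, 14395, 14410 and 14415 nt, at 18744, 18765, 18770 and 18779 nt, at 20276, 20283, 20297 and 20324 nt, and at 21859, 21885, 21893 and 21930 nt. Clusters of 4 in MYB were thus between 23 and 76 nt wide, and all of them lay in the dense 15.9 kb.

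**Figure D2:**
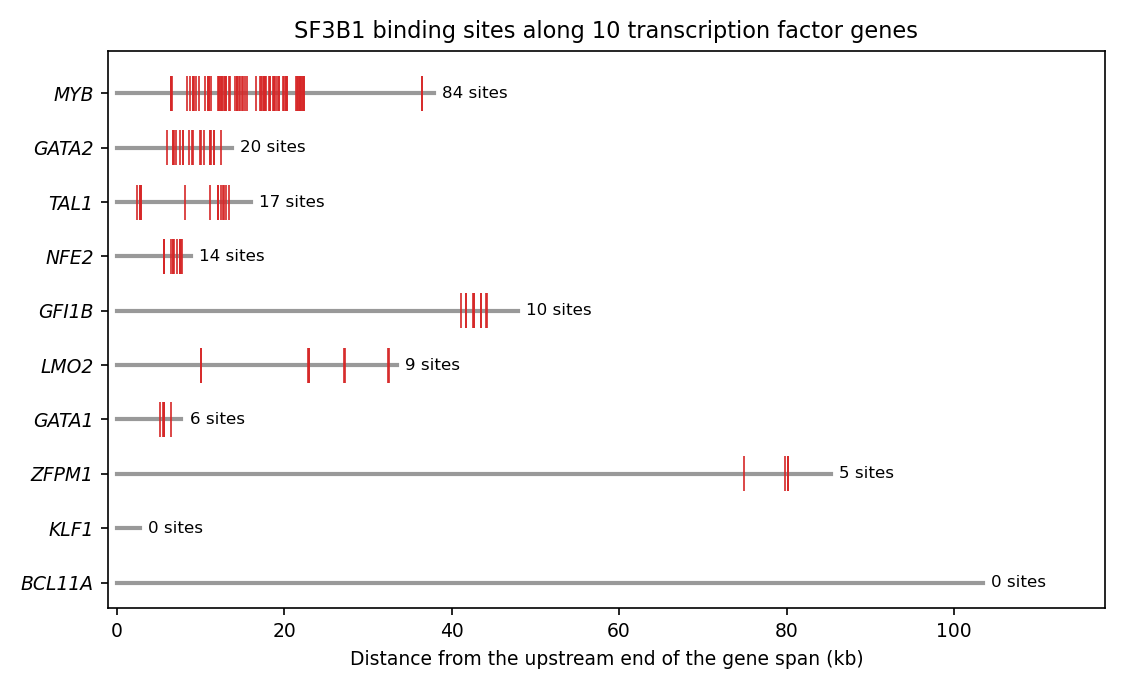
Each grey line is the RefSeq span of 1 gene, drawn to scale in kb from its upstream end, and each red mark is the centre of 1 SF3B1 binding site; genes are ordered by their number of sites. In MYB, 82 of the 84 sites fill one stretch and 2 lie apart near the downstream end, the sites of GFI1B, ZFPM1, NFE2 and GATA1 lie towards the downstream end, and KLF1 and BCL11A carry none.

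GATA1 and GATA2, the first of which takes the place of the second on chromatin as red cells mature, both carried their sites away from the start. GATA1 lies on the plus strand of chromosome X, between 48786590 and 48794311. Its 6 sites were centred 5226, 5550, 5679, 5712, 5719 and 6537 nt from the start, all in a stretch of 1.31 kb, and the first 67.7% of the span held none. GATA2 lies on the minus strand of chromosome 3, between 128479422 and 128493201. Its 20 sites covered 6.4 kb, the first centred 6.08 kb from the upstream end, and formed 14 clusters, 10 of them a single site. The 2 largest GATA2 clusters held 3 sites each and had nearly the same width: one was centred at 6784, 6796 and 6822 nt from the upstream end and was 43 nt wide, and the other at 11206, 11212 and 11246 nt and was 45 nt wide. The 2 clusters of 2 sites lay at 7899 and 7904 nt and at 11633 and 11664 nt. The single sites stood at 6081, 7114, 7523, 8612, 9046, 9140, 9927, 10091, 10404 and 12484 nt. The largest distance between neighbouring GATA2 sites was 0.82 kb, so the sites were spread over the downstream portion rather than gathered in one place. GATA2 has 2 tabulated starts, and all 20 sites lay downstream of the inner one, the first of them by 1.41 kb. The antisense RNA gene GATA2-AS1 overlaps the upstream end of GATA2 and contained 0 sites.

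TAL1, on the minus strand of chromosome 1 between 47216290 and 47232335, had sites at both ends of a long interval. A first group of 5 sites lay at 2491, 2845, 2863, 2904 and 2923 nt from the upstream end, the last 4 of them in one cluster 83 nt wide. A single site followed at 8184 nt, after 5.26 kb without one, and the other 11 lay between 11165 and 13420 nt. This last group included 5 sites centred at 12106, 12118, 12130, 12142 and 12150 nt, the largest cluster found in any of the 10 genes, 49 nt wide. The others of this group were single sites at 11165, 12474, 12763, 12838, 13059 and 13420 nt. Runs of at least 5 sites with neighbours at most 12 nt apart occurred in 27 of the 4630 genes with at least 5 sites, or 0.583%. The first 4 sites of the run were exactly 12 nt apart. Only 6 places in the whole list had at least 3 successive equal distances of at most 12 nt, and this was the only one with a distance of 12 nt. The run was singled out after its positions were seen, and the sequence beneath it was not used here.

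LMO2 lies on the minus strand of chromosome 11, between 33858576 and 33892076. Its 9 sites fell into 4 compact clusters and no single site, unlike the other 7 genes with sites. The clusters were centred at 10133 and 10140 nt, at 22904, 22927 and 22956 nt, at 27215 and 27251 nt, and at 32448 and 32504 nt from the upstream end. They were separated by 12764, 4259 and 5197 nt. ZFPM1, on the plus strand of chromosome 16 between 88451769 and 88537031, showed the opposite proportion of gene to sites. Its 5 sites were centred 74978, 79854, 80199, 80221 and 80238 nt from the upstream end, and the first 87.9% of the span held none. One of the ZFPM1 sites also lay inside the antisense gene ZFPM1-AS1, which is annotated on the other strand.

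NFE2, the blood-specific subunit of the NF-E2 activator, lies on the minus strand of chromosome 12 between 54292111 and 54301015. All 14 of its sites were found in 2.12 kb, the first centred 5.65 kb from the upstream end. They formed 7 clusters, 2 of which held 4 sites each. One of these was centred at 5650, 5655, 5694 and 5701 nt, which is a pair of sites 5 nt apart followed by a pair 7 nt apart, with 39 nt between the pairs. The other was looser, with sites at 7530, 7585, 7615 and 7658 nt, and was 133 nt wide. A spacing of 5 nt, that of directly adjoining sites, recurred at 6770 and 6775 nt, and single sites stood at 6547, 6911, 7167 and 7765 nt. The first 63.4% of the NFE2 span held none.

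GFI1B, on the plus strand of chromosome 9 between 132945531 and 132993434, has 2 tabulated starts 33.2 kb apart. Its 10 sites were centred 41086, 41703, 41738, 42613, 42629, 42653, 43484, 43534, 44106 and 44199 nt from the outer start. They covered 3.11 kb, and the first lay 7.92 kb downstream of the inner start shown above. The interval between the 2 starts held 0 sites. In TAL1, too, with starts 0.62 kb apart, the first site lay 1.87 kb downstream of the inner start. In GATA2, TAL1 and GFI1B no site therefore preceded the inner start. Of 780 protein-coding genes with at least 5 sites and starts at least 500 nt apart, 574, or 73.6%, also had none there.

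KLF1 and BCL11A, the activator and the repressor that act on the switch from fetal to adult globin, had no site on either strand. KLF1 is short, with 2.78 kb on chromosome 19 between 12884422 and 12887201. The nearest sites on its strand lay 35.7 kb upstream and 84.4 kb downstream, and on the opposite strand 8.07 and 77.0 kb away. BCL11A is the longest of the 10 genes, with 103 kb on chromosome 2 between 60450520 and 60553924 and 5 tabulated starts. The nearest sites on its strand lay 387 kb upstream and 2220 kb downstream. Genes with 0 sites made up the majority of protein-coding genes, 12429 of 20037, and in this list they cannot be told apart from genes whose RNA was too rare to give a reproducible site.

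Sites outside the spans were some way off. Beyond MYB the nearest sites on the same strand lay 1190 kb upstream and 2660 kb downstream. For GATA2 these distances were 133 and 360 kb, and for LMO2 991 and 99.9 kb. The closest on the same strand was 12.0 kb downstream of GATA1, followed by 18.2 kb downstream of NFE2 and 19.6 kb upstream of TAL1. On the opposite strand the nearest lay 5.2 kb downstream of NFE2, 8.07 kb upstream of KLF1 and 10.4 kb upstream of GFI1B. The same distances were not computed for other genes. Within the spans, 0 sites lay on the opposite strand. The strand of LMO2 and NFE2 was itself taken from their sites, whereas for the other 6 genes it came from the start tables. Among protein-coding genes with at least 5 sites, 3.46% had a site on the opposite strand.

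The position along the span was compared with that in other genes. In all 8 genes the first 10% of the span held 0 sites, which was also true of 76.0% of the 4630 genes with at least 5 sites. The first site lay beyond the midpoint in 4 of the 8, namely GATA1, NFE2, ZFPM1 and GFI1B, against 19.6% of those genes. Expressed as a percentage of the span, the first site stood at 15.5% in TAL1, 17.1% in MYB, 30.2% in LMO2, 44.1% in GATA2, 63.4% in NFE2, 67.7% in GATA1, 85.8% in GFI1B and 87.9% in ZFPM1. The median was 53.8%, and over the genes with at least 5 sites it was 24.6%, with quartiles of 10.5% and 44.3%. Counted in bases, the first site was not farther from the span start. Its median distance was 6.27 kb in the 8 genes, with quartiles of 5.54 and 17.9 kb. Over the genes with at least 5 sites it was 8.23 kb, with quartiles of 2.6 and 24.1 kb. RefSeq spans run from the outermost start, which may not be the one used in K562, and this was not tested.

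The downstream limit was more uniform. The last site lay 0.996 kb before the end of the span in LMO2, 1.14 kb in NFE2, 1.18 kb in GATA1, 1.29 kb in GATA2 and 1.35 kb in MYB. It lay 2.62 kb before the end in TAL1, 3.7 kb in GFI1B and 5.02 kb in ZFPM1. Counted in bases, the median of 1.32 kb stands beside 3.04 kb over the genes with at least 5 sites, whose quartiles were 1.23 and 7.21 kb. Expressed as a percentage of the span, the last site did not stand apart. Its median was 91.4% in the 8 genes, with quartiles of 86.6% and 94.7%. Over the genes with at least 5 sites it was 91.7%, with quartiles of 80.6% and 96.8%. No member had a site closer than 900 nt to its end, a cut that lies just below the shortest distance, 0.996 kb in LMO2. The same was the case in 81.4% of those genes. Exons and introns could not be told apart with the tables used, so these distances are not assigned to a last exon.

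MYB and the other 7 genes had contrasting profiles. Without MYB, 70 of 81 sites, or 86.4% (95% Wilson interval 77.3% to 92.2%), lay beyond the midpoint of the span. In MYB 24 of 84 did, or 28.6% (20.0% to 39.0%). Over all protein-coding genes with a site the share was 63.4%. The intervals treat sites as independent counts, which neighbouring sites are not, and the difference was not tested. The final 10% of the span held 13 of the 165 sites, or 7.88% (4.66% to 13.0%), and 13.5% of the sites in all genes; without MYB it held 13.6%.

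**Figure D3:**
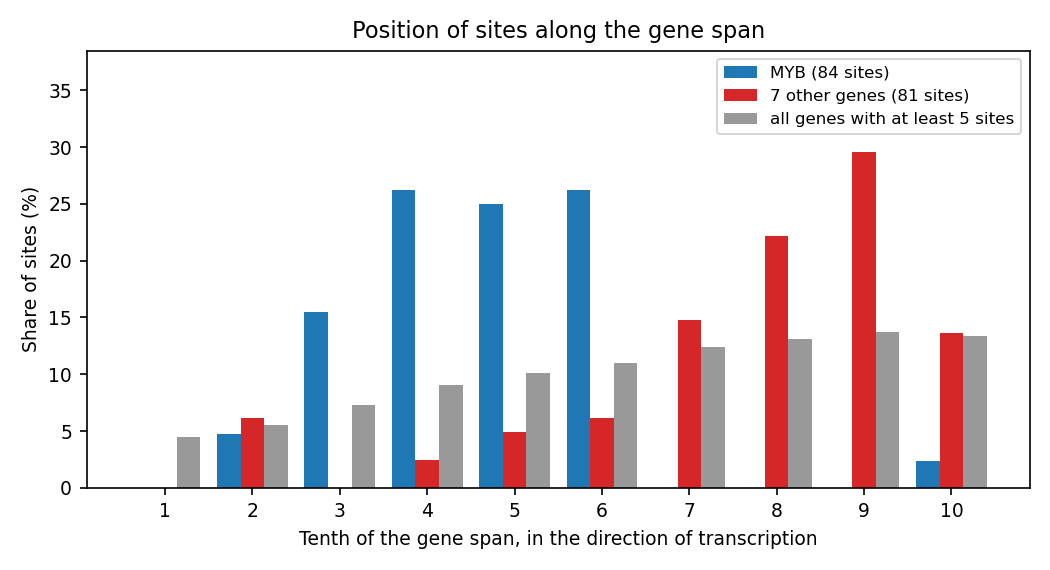
Share of sites in percent in each successive 10% of the gene span, in the direction of transcription, for MYB (84 sites, blue), the other 7 factor genes with sites (81 sites, red) and all protein-coding genes with at least 5 sites (grey). MYB forms a plateau of up to 26.2% on both sides of the midpoint and holds 2.38% in the final 10%, whereas the other 7 genes reach 29.6% close to the downstream end.

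The closest distances and those of 25 to 45 nt had shares near those of all genes. The share of those between them was higher, but it rests on 17 distances and no interval was computed for it. Between neighbours in the 8 genes there were 157 distances, of which 26, or 16.6%, were 5 to 12 nt, against 17.2% in all protein-coding genes with a site. Distances of 25 to 45 nt made up 12.7% (95% Wilson interval 8.4% to 18.9%) against 14.1%. Distances of 13 to 24 nt made up 10.8%, 17 of 157, against 6.15%, and those of 67 to 100 nt made up 5.73% against 3.24%. These differences were not tested, and neighbouring distances in a gene are not independent. Pairs of sites 25 to 45 nt apart, neighbouring or not, numbered 38, and pairs 46 to 66 nt apart numbered 14. MYB contributed 18 and 6 of these, GATA2 5 and 0, TAL1 4 and 2, and NFE2 4 and 3. The nearer pairs were more numerous in 7 of the 8 genes, LMO2 having 2 of each, and in 78.9% of all genes with at least 5 sites. Pooled over the 8 genes, the ratio of nearer to farther pairs was 2.71, and 2.5 without MYB. In all protein-coding genes with a site this ratio was higher, 3.59. Both spans had been chosen on this list.

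Shares at longer range also stood apart from those of all genes. Neighbours 201 to 500 nt apart made up 24.2% of the distances, 38 of 157, against 11.4% in all protein-coding genes with a site. Those of 1001 to 10000 nt made up 5.1% against 22.4%, and those above that 1.27% against 5.3%. The 8 genes were shorter, with a median span of 24.8 kb against 36.1 kb. They also held more sites per kb, with a median of 0.918 against 0.199, and MYB gave 83 of the 157 distances. The part of any of these in the difference was not tested. The 98 clusters held a mean of 1.68 sites, and 62.2% were a single site, against 1.57 and 63.2% in all genes.

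**Figure D4:**
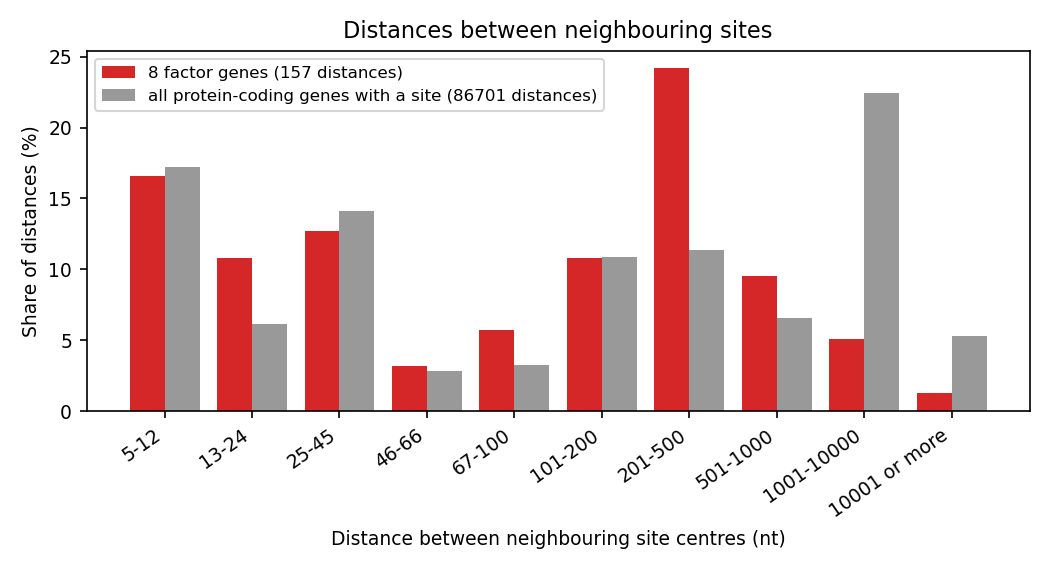
Share in percent of the distances between the centres of neighbouring sites, in bins of nt, for the 8 factor genes (157 distances, red) and for all protein-coding genes with a site (86701 distances, grey). The 2 sets are alike at 5 to 12 nt, while distances of 201 to 500 nt make up 24.2% in the factor genes and 11.4% overall.

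Partners of these factors nearly all carried sites. Of 23 genes of the complex around LMO2, TAL1 and GATA factors and of its co-regulators, 22 had a site, with a median of 15, and 19 had at least 5; the background was 38.0% and 23.1%. All 11 genes on the side of the DNA-binding complex had one, from 3 to 30 sites. These include RUNX1, the core binding factor mutated in leukaemia, with 30 sites, or 0.115 per kb. Counts in this list and in those that follow are not corrected for gene length. Per kb, the 22 partner genes with a site ranged from 0.00725 to 2.89. The median over all protein-coding genes with a site was 0.199, and partners lay on both sides of it. The co-regulators with the most were the histone demethylase KDM1A with 38, the deacetylase HDAC1 with 25, MTA2, of the NuRD complex, with 25 and the acetyltransferase EP300 with 24. CHD4, the remodelling enzyme of NuRD, had 0.

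Of 24 other factors known in erythroid or megakaryocytic cells, 17 had a site and 12 had at least 5, with a median of 4.5. The share with a site, 70.8%, stands beside 38.0% of all protein-coding genes, and the 12 of 24 with at least 5 beside 23.1%; the lists were not tested against each other. The signal transducers STAT5B and STAT5A had the most, 45 and 39, followed by the nuclear receptors NR2C1 and NR2C2 with 17 each and by the cell cycle regulator E2F4 with 14. FLI1, ERG, ETV6, MAFK, ZBTB7A, SOX6 and GFI1 had 0. FLI1 and ERG are ETS factors of megakaryocytes and stem cells, ZBTB7A and SOX6 take part in silencing fetal globin, and GFI1 is the paralogue of GFI1B.

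Factors that define other blood lineages, used to check the labelled cell type, had at most 1 site each. Of 11 genes, SPI1, of the myeloid lineage, and TCF7, of T cells, had 1 site each, which is 18.2% of the list, with a median of 0; over all protein-coding genes 38.0% had a site, also with a median of 0. CEBPA, CEBPE, IRF8, PAX5, EBF1, POU2AF1, GATA3, TBX21 and BCL11B had 0. The factor genes with sites include GATA1, TAL1, NFE2 and GFI1B, which mark the erythroid and megakaryocytic lineages, but not KLF1 or BCL11A. Among the other erythroid or megakaryocytic factors, FLI1, ERG, ETV6, MAFK, ZBTB7A, SOX6 and GFI1 also had 0. Presence or absence of sites in these genes therefore does not settle the cell type.

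**Figure D5:**
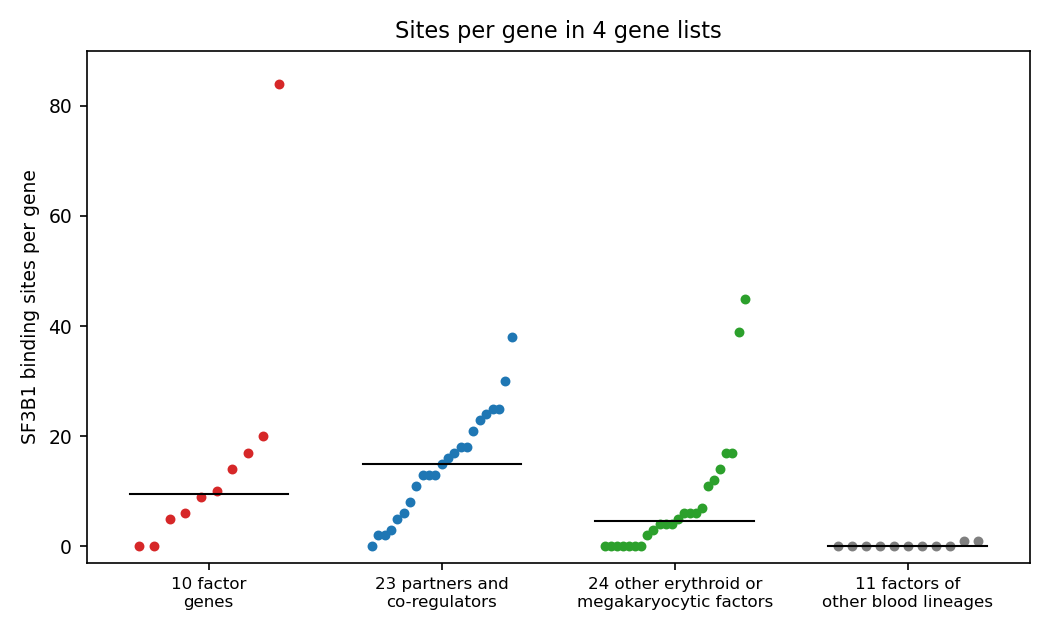
SF3B1 binding sites per gene, 1 point per gene, in the 10 factor genes and in 3 lists of related genes; the black line is the median of each list. The medians are 9.5, 15, 4.5 and 0 sites, and MYB with 84 sites is the highest point.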

How the data were processed

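The authors deposited 1 BED list of SF3B1 binding sites, 5 nt wide, merged, and shared by every replicate of one or the other condition, per the file headers. Its score, as deposited, is 0 in every row. The submitters' processing notes name GRCh38 (p10 and p12), STAR 2.7.3a and 2.6.1b, UMI-tools 1.0.0, bedtools 2.27.1 and FastQC 0.11.8, with no role given; the site caller is not given in the sources used here. Requiring reproducibility can drop sites in rare RNA.

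Centres were set against gene spans of RefSeq GRCh38.p14. All 10 members matched by symbol. Strand came from the RefSeq start table (15843 of 20037 protein-coding genes) or else from the strand with more sites. A site inside several genes counted for each. Position was described in genes with at least 5 sites. The counting was tested on simulated data. Every member is named; in the related lists, the 5 genes with the most sites and those with 0 are named; 1 gene of the partner list is not reported here. Members and lists were chosen with earlier results of these data known. The planned distances to splice sites needed exon positions and were not made. Python 3.11.15, NumPy 2.4.6, pandas 2.3.3, SciPy 1.17.1 and Matplotlib 3.10.9 were used.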

Additional observations from a re-analysis of the deposited data

How the results depend on the processing

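Of 58 recalculations of 17 results, 52 stayed within 1.5 times the value given, or within its interval, and 6 moved. Ranking by sites per kb changed the median rank of the 8 genes from 2374 to 1046. Leaving out MYB reduced the pairs 25 to 45 nt apart from 38 to 20 and raised the share in the final 10% of the span from 7.88% to 13.6%, MYB itself having 2.38% there. Taking the final 20% of the span gave 22.4%, by construction. With a minimum of 5 sites, 0 factors of other blood lineages remained. Sites in no other annotated gene numbered 35 in MYB and 115 in all. One site per region number of the list gave 149 sites, and merging touching sites gave 157. No paired analysis was possible because replicates are merged in the deposited sites, and for the same reason no replicate could be left out. Alternatives on distances to splice sites were not run, since exon positions were not used here.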
